A study of Rattus norvegicus with 12 samples.

Results

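The 39 genes described here are the enzymes that convert glucose to lactate, the transporters and regulators that control that flow, and the hypoxia-inducible factor (HIF) subunits, the prolyl hydroxylases and a set of HIF targets. They were picked by identifier from a fixed list, by a rule without measured values but with earlier results of these data known. They are 39 of the 20263 identifiers in the deposited tables. They comprise 3 transporters, 9 enzymes of the preparatory steps (hexokinase to triosephosphate isomerase), 6 of the pay-off steps (GAPDH to pyruvate kinase), 2 lactate dehydrogenases, 3 regulators, 2 HIF alpha subunits, 2 HIF prolyl hydroxylases and 12 other HIF targets. The RNA is labelled as coming from wild-type H9C2 cells, a line derived from embryonic rat heart. All groups were grown in DMEM with serum and collected after 48 h, with 3 biological replicates each and 12 libraries in all. Control cells (Ctrl) received 5.5 mM glucose and high-glucose cells (HG) 100 mM. HG-Res cells received 100 mM glucose with 5 µM resveratrol, a plant polyphenol widely used as a sirtuin activator. HG-Res-SIRT7-Inh cells, called the inhibitor group below, received 5 µM of a further compound, which the labels call an inhibitor of SIRT7, on top of 100 mM glucose and 5 µM resveratrol. The protocol calls that compound SirReal2, a name generally used for a SIRT2 inhibitor. The labels describe neither an osmotic or vehicle control nor cells given the inhibitor without resveratrol, so the inhibitor group differs from HG in both compounds.

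Glycolysis splits glucose into pyruvate in the cytosol, and lactate dehydrogenase turns pyruvate into lactate, which keeps the pathway running when oxygen is short. HIF is a transcription factor whose alpha subunits are hydroxylated by the EGLN enzymes and then degraded while oxygen is present. When oxygen is low the alpha subunits persist and raise transcription of glucose transporters, most glycolytic enzymes and genes such as VEGFA, ADM and BNIP3. Since this control acts on the protein, the mRNA of an alpha subunit does not report HIF activity.

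The identity of these genes rests on the identifiers, all 20263 of which have Ensembl's human prefix although the labels give rat. The files hold no gene names, so the symbols below are those of the human identifiers in the list, and whether the reads came from rat or human RNA was not settled. For the same reason other genes of these pathways and the markers that would test the labelled cell type were not analysed here. Several members (GAPDH, PGK1, PGAM1, TPI1, ENO1, ALDOA, PKM, LDHA and LDHB) have near-identical pseudogene copies whose reads the authors' counting could have split, which makes their levels uncertain. In RNA from a whole culture, fewer cells of a type and less RNA per cell cannot be told apart.

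Levels are given in CPM, a gene's reads scaled to a common library total with no regard to gene length, so levels of different genes cannot be set against each other. The depth worked out from the values was 30.3 to 33.2 M reads per library. Changes are differences of log2(CPM + 1) from limma, tested at a Benjamini-Hochberg adjusted p of 0.05 over 12854 genes, those that reached 0.5 CPM in 3 or more of the 9 libraries grown in high glucose. Of the 39 members, 38 passed that filter. The exception was EGLN3, a HIF prolyl hydroxylase, at 0.16, 0.12 and 0.16 CPM in HG, 0.06, 0.16 and 0.06 in HG-Res and 0.19, 0.19 and 0.13 in the inhibitor group, which is about 2 to 6 reads per library and too few to compare. The 38 tested members spanned a wide range of depth. Reads per library were about 63 to 109 for ANKRD37 and 61 to 225 for CA9, against 197698 to 280704 for GAPDH.

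Of the 9 high-glucose libraries, HG replicate 2 and replicate 3 of the inhibitor group stood apart from their groups, also in most members. The median SD between replicates over all tested genes was 0.132 (log2) in HG, 0.0713 in HG-Res and 0.242 in the inhibitor group. HG replicate 2 was above the mean of its other replicates, and inhibitor replicate 3 below the mean of its own, in 27 of 38 members (71.1%), against 42.6% of all tested genes. Among the 17 enzymes this held for 13. Their medians were 0.15 for HG replicate 2 and -0.37 for inhibitor replicate 3, against 0.00 and -0.02 over all genes. The opposite combination held for 8 members (21.1%), against 41.3% of all tested genes. Among these members were HIF1A (-0.57 and 0.34), EGLN1 (-0.55 and 0.30), P4HA1 (-0.61 and 0.67) and MXI1 (-0.59 and 0.38). What set them apart was not tested, and counts without them are given below.

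**Figure D1:**
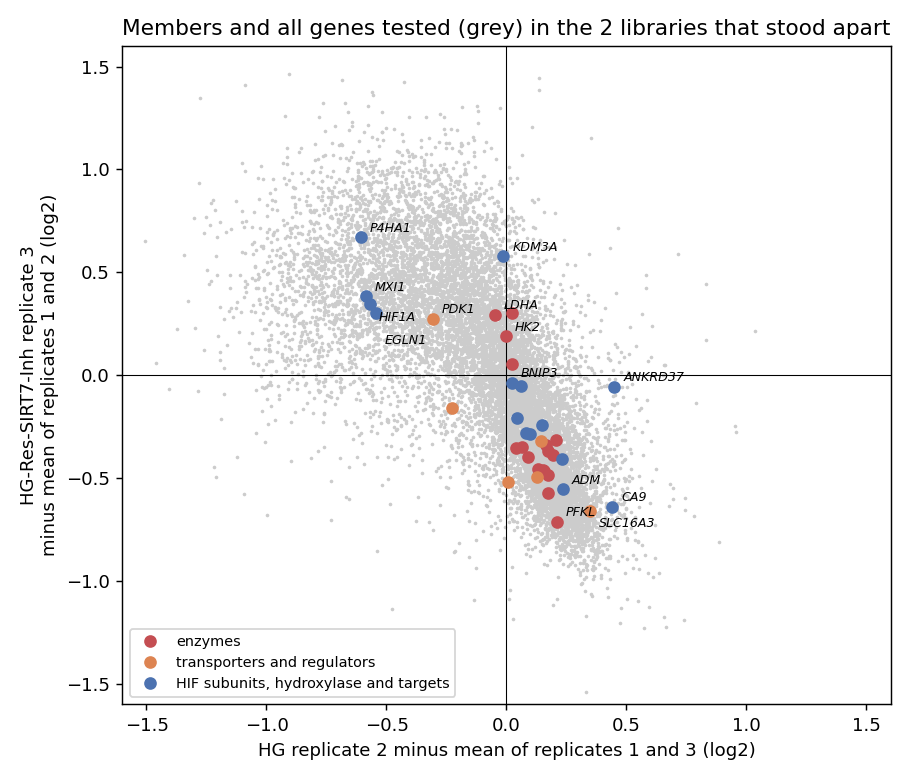
Each point is a gene, placed by how far HG replicate 2 (horizontal axis) and HG-Res-SIRT7-Inh replicate 3 (vertical axis) lay from the mean of the other replicates of their group, on log2(CPM + 1). Grey points are all 12854 genes tested and coloured points the 38 members; 27 members lie at the lower right, and HIF1A, EGLN1, P4HA1 and MXI1 lie at the upper left.

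The first question was how these genes differed between HG and Ctrl. It could be described for VEGFA alone, the growth factor that drives vessel formation. The authors' deposited table for HG against Ctrl holds 354 genes, all carrying the authors' mark for a fold over 1.5 at an unadjusted p under 0.05, which is 1.75% of the identifiers (1.28% marked lower). VEGFA (ENSG00000112715) was the only member among them. Its level was 81.3, 78.5 and 77.3 CPM in Ctrl and 46.2, 52.1 and 42.6 in HG. Every HG library was below every Ctrl library. Genes were listed for a difference between these groups, so this separation is not separate support for it. The authors' deposited table gave a log2 fold change of -0.68 with a q-value of 1.36e-07 for HG against Ctrl. For the other 38 members no Ctrl level was analysed here, and their absence from the marked genes does not show that they were unaffected.

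Resveratrol was then compared with high glucose alone, HG-Res against HG. At an adjusted p of 0.05, 0 of 38 members passed with limma, where 0.708% of all tested genes did (0.327% higher and 0.381% lower). The count was also 0 with limma's voom weighting of approximate reads, where 0.653% of all genes passed. At an unadjusted p under 0.05 limma gave 7 members, against 10.7% of all genes, and the q-values of the authors' deposited table gave 6, against 8.47%. The enzymes nevertheless lay mostly on 1 side: 14 of 17 had a higher mean in HG-Res, against 6415 of 12854 genes tested. Their median change was 0.14, against -0.000542 over all genes. HG replicate 2 was above the mean of its other replicates in 15 of the 17, so the enzymes are not separate observations. All 9 preparatory enzymes had a higher mean in HG-Res, and in 6 of them every HG-Res replicate was above every HG replicate. Replicates of HG-Res and HG did not overlap in 19 of 38 members, 11 with HG-Res above and 8 below, where 29.9% of all genes did so (15% above and 14.8% below). Both lactate dehydrogenases lay the other way, each with all HG-Res replicates below all HG replicates. Without HG replicate 2 the count without overlap was 29, where 58.7% of all genes did not overlap. It was 21 without HG replicate 1 and 21 without HG replicate 3, where 32.9% and 38.1% of all genes did not overlap. Fewer libraries make this more frequent for any gene, but the rise was larger without HG replicate 2. Of 15 tested HIF subunits, hydroxylases and targets, 10 had a lower mean, where 6439 of 12854 genes did, with a median change of -0.11. Over all members the changes ran from -0.75 to 0.30.

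Beside LDHA, a textbook readout of the pathway, 3 members under an unadjusted limma p of 0.05 are given here, named after their values were seen; HK2, ENO2 and BNIP3, also under it, are described further on. HK1 (ENSG00000156515), the broadly expressed hexokinase that phosphorylates glucose and so keeps it in the cell, was at 279.7, 284.6 and 274.2 CPM in HG and 320.4, 340.1 and 346.8 in HG-Res. GPI, the isomerase of the next step, was at 249.6, 275.8 and 253.04 CPM in HG and 307.2, 331.02 and 320.4 in HG-Res. For both genes the groups did not overlap, but the limma change of 0.26 ± 0.12 (SE) for HK1 had an adjusted p of 0.458 and that of 0.30 ± 0.13 for GPI 0.469. SLC2A3, the high-affinity glucose transporter GLUT3, was at 42.4, 36.5 and 43.5 CPM in HG and 50.6, 49.6 and 51.3 in HG-Res, a limma change of 0.30 ± 0.10 with an adjusted p of 0.307. LDHA, the subunit that favours lactate production, was at 1126, 1086 and 1121 CPM in HG and 963, 1006 and 1022 in HG-Res. Its limma change was -0.16 ± 0.09 with an adjusted p of 0.639. In each of these 4 genes the replicates of the groups did not overlap, and none passed.

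VEGFA came closest to the threshold. It was at 26.4, 26.4 and 29.3 CPM in HG-Res, below all 3 HG libraries. The group means were 46.9 ± 4.83 CPM in HG and 27.4 ± 1.66 in HG-Res (SD, n = 3). The limma change was -0.75 ± 0.15 (SE) with an adjusted p of 0.0585, and the authors' deposited table gave a q-value of 1.01e-07. The call depended on inhibitor libraries, which enter this comparison through the shared spread alone. The limma adjusted p was 0.0276 without inhibitor replicate 1, 0.00843 without inhibitor replicate 3 and 0.0116 with HG and HG-Res fitted alone (3 members passed there, HK1, GPI and VEGFA, where 4.64% of all genes did), and it ranged from 0.00363 to 0.303 over 20 alternatives. Without inhibitor replicate 3, 3 members passed (HK1 and GPI higher, VEGFA lower), where 6.23% of all genes did, and without inhibitor replicate 1, VEGFA alone passed, where 0.731% did. With HG replicate 2 and inhibitor replicate 3 both left out, 13 members passed, where 21.2% of all genes did, 11 higher and 2 (LDHA and VEGFA) lower. The 11 were HK1, HK2, GPI, PFKL, PFKP, ALDOA, GAPDH, ENO1, ENO2, PKM and SLC2A3.

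**Figure D2:**
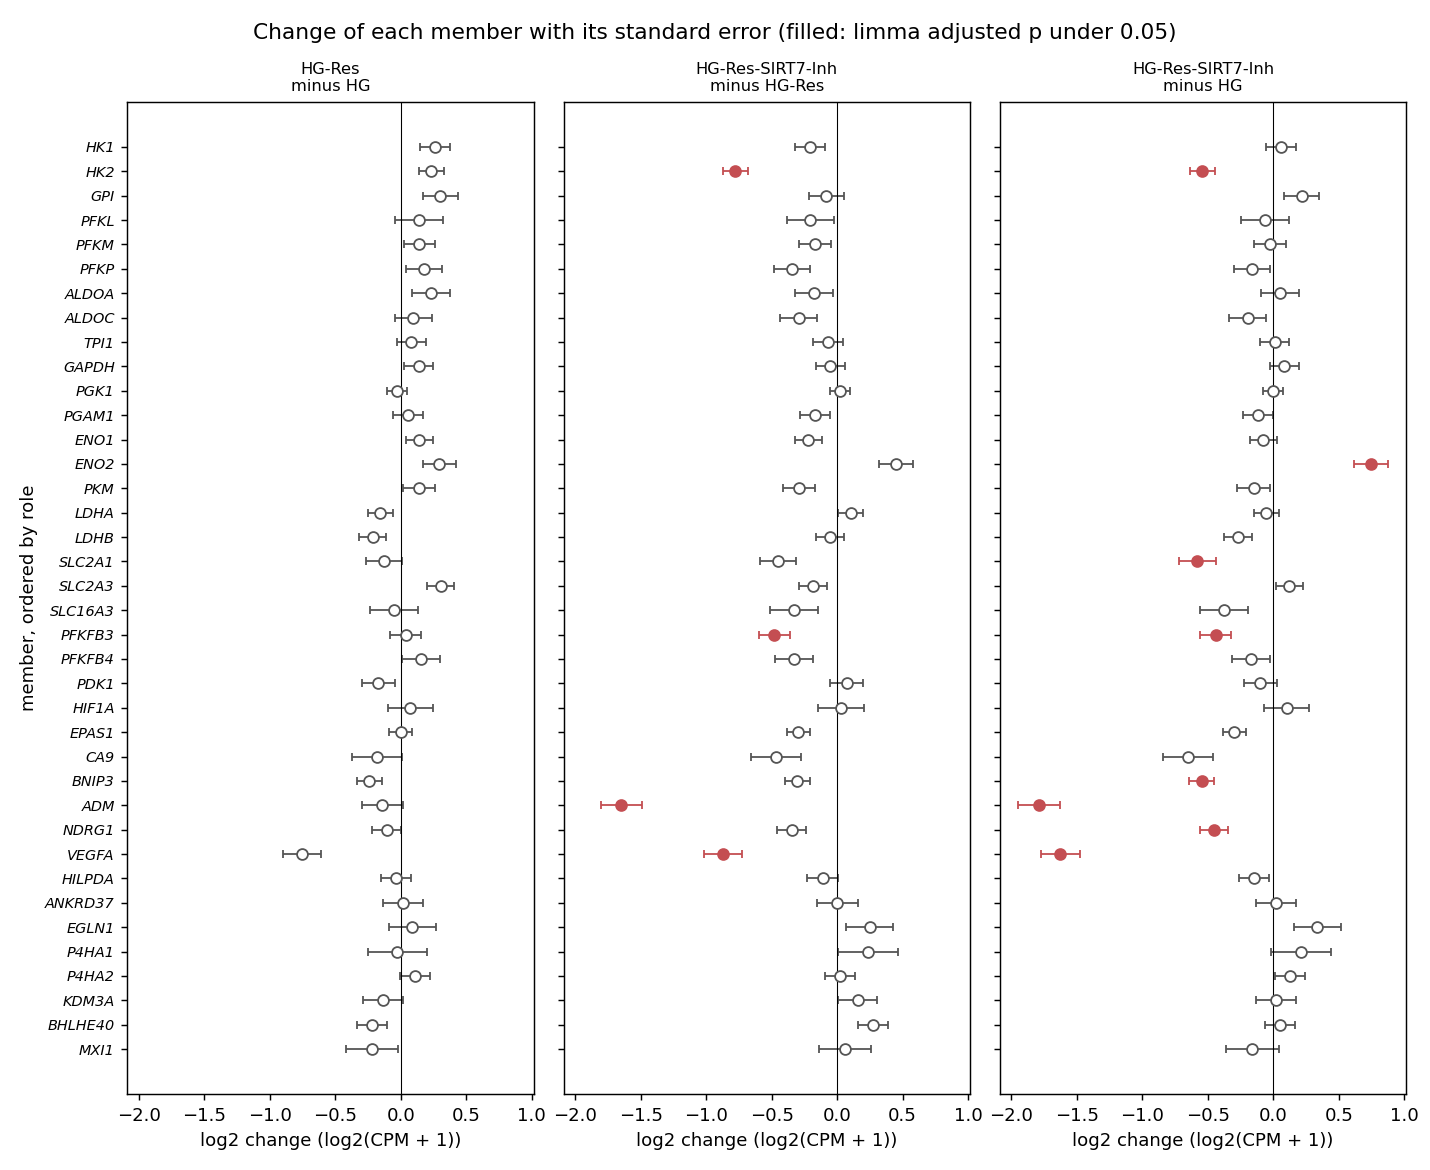
Change of each of the 38 tested members (rows, ordered by role) on log2(CPM + 1) in the 3 comparisons among high-glucose groups, with bars for the standard error; filled red points passed a limma adjusted p of 0.05. There are 0 filled points for HG-Res against HG, 4 for the inhibitor group against HG-Res and 8 for the inhibitor group against HG, and the 17 enzymes at the top lie mostly right of 0 in the left panel and left of 0 in the middle one, where GPI, PFKL, ALDOA, TPI1 and GAPDH change sides without inhibitor replicate 3.

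The effect of adding the inhibitor to resveratrol was read from the inhibitor group against HG-Res. Adrenomedullin, VEGFA, hexokinase 2 and the glycolytic regulator PFKFB3 fell and no member rose. That is 4 of 38 members with limma, where 6.07% of all tested genes passed (4.19% lower and 1.88% higher). The voom fit also gave 4, where 5.8% of all genes passed, as did the q-values of the authors' deposited table, where 8.69% passed. ADM (ENSG00000148926), which encodes a vasodilator peptide, was at 146.9, 152.8 and 146.9 CPM in HG-Res and 57.1, 49.9 and 36.02 in the inhibitor group. Every inhibitor library lay far below every HG-Res library, and the lowest was replicate 3. The group means were 149 ± 3.44 and 47.7 ± 10.7 CPM (SD, n = 3), a ratio of 0.320. The limma change was -1.65 ± 0.16 (SE) with an adjusted p of 0.000355.

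HK2 (ENSG00000159399), the inducible hexokinase that binds mitochondria, was at 19.6, 19.1 and 19.2 CPM in HG-Res and 10.5, 10.2 and 11.95 in the inhibitor group. HG lay between them at 16.6, 16.3 and 15.98 CPM, and no groups overlapped. The limma change against HG-Res was -0.78 ± 0.09 with an adjusted p of 0.00154. In HK2 inhibitor replicate 3 was the highest library of its group, 0.19 above the mean of the other replicates on log2. VEGFA was at 17.7, 14.5 and 11.8 CPM in the inhibitor group, below all HG-Res libraries, with a limma change of -0.87 ± 0.15 and an adjusted p of 0.00845.

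PFKFB3 (ENSG00000170525), which makes the fructose 2,6-bisphosphate that activates phosphofructokinase, was at 47.9, 46.99 and 49.8 CPM in HG-Res and 39.1, 35.1 and 29.4 in the inhibitor group. The groups did not overlap, yet the limma change of -0.48 ± 0.12 had an adjusted p of 0.0450, just inside the threshold. That call was lost in 8 of 21 alternatives. The limma adjusted p was 0.0856 without HG replicate 1 and 0.0723 without HG replicate 3. It was 0.147, 0.15 and 0.172 without HG-Res replicates 1, 2 and 3 in turn, and 0.116 without inhibitor replicate 2. VEGFA was lost without HG-Res replicate 3 (limma adjusted p 0.0523), which left 2 members called, ADM and HK2, where 2.16% of all genes were. ADM and HK2 passed in 21 of 21 alternatives, with limma adjusted p of at most 0.00390 and 0.0148.

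With these 4 included, limma put 14 members under an unadjusted p of 0.05, 12 lower and 2 higher, against 24.6% of all genes. All 9 preparatory enzymes had a lower mean in the inhibitor group than in HG-Res, where 5782 of 12854 genes did. Their median change was -0.20, and that of all 38 members was -0.17 against 0.04 over all genes. Without inhibitor replicate 3, the means of GPI, PFKL, ALDOA and TPI1 were higher in the inhibitor group instead, as was that of GAPDH. This comparison and the previous one share the HG-Res libraries, so a high value in HG-Res moves them in opposite directions. Changes of the members ran from -1.65 to 0.45. Replicates of the inhibitor group lay wholly below those of HG-Res in 16 members and above in 2, ENO2 and BHLHE40, together 18 of 38, where 33.7% of all genes did not overlap (16% below and 17.7% above). Without inhibitor replicate 1 the count passing limma was 7, adding SLC2A1, EPAS1 and NDRG1 as lower, where 13.8% of all genes passed. Without inhibitor replicate 3 it was also 7, adding SLC2A1 and EPAS1 as lower and ENO2 as higher, where 9.14% passed. With HG replicate 2 and inhibitor replicate 3 both left out it was 11, where 18.8% of all genes passed.

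The promoters of 3 of the genes that fell are shown because HIF binds a short core, ACGTG or GCGTG, and they differ in how often it occurs. ADM had the largest fall of the members, and BNIP3 and SLC2A1 fell in the comparison with HG below. They are the 300 bases from 250 before to 50 after the start of the rat gene of the same name, from RefSeq on GRCr8. The identifiers in the files are human, so a window may not be the one of the gene measured. Capitals mark each ACGTG or GCGTG on either strand (CACGT and CACGC when read from the other strand), and sites that overlap are merged. Adm lies at chr1:174179950-174180249 on the + strand, Bnip3 at chr1:203154913-203155212 on the - strand and Slc2a1 at chr5:138002272-138002571 on the + strand.
Adm: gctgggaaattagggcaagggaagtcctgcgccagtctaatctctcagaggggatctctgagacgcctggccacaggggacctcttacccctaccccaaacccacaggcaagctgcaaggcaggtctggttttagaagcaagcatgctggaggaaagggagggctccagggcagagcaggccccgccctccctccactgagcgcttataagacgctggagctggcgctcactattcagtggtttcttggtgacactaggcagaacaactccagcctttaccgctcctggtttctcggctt
Bnip3: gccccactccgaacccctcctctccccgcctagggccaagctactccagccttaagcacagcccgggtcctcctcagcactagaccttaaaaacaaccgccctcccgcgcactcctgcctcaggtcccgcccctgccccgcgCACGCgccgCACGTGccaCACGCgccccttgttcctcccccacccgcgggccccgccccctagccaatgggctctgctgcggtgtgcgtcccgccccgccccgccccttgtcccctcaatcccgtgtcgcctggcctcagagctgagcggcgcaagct
Slc2a1: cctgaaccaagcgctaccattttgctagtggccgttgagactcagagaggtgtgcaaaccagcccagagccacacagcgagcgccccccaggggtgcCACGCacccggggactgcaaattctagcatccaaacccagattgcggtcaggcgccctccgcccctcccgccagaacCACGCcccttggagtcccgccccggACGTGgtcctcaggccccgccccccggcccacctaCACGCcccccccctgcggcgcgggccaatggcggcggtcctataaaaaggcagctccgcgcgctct
The Adm window held 0 of these cores and the Bnip3 and Slc2a1 windows held 4 each. In Bnip3 a pair of them overlap in CACGTG. By symbol, ignoring case, 35 of 39 members were matched, and CA9, NDRG1, PGK1 and SLC2A3 were not. The core occurred in 27 of 41 member windows (65.9%) and in 13937 of 33469 windows of all genes (41.6%). These shares were not matched for expression or base composition, and their difference was not tested. Both Vegfa windows and the Hk2 window held 0, while Pfkfb3 held 2 and Eno2 held 1. A match is a string of letters, not evidence of binding. A count of 0 does not show that a site is absent outside the window.

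Compared with HG, the inhibitor group showed both compounds together. ENO2 rose, and ADM, VEGFA, HK2, BNIP3, SLC2A1, NDRG1 and PFKFB3 fell, 8 of 38 members with limma, where 10.8% of all tested genes passed (4.27% higher and 6.5% lower). The voom fit gave 8 as well, where 10.7% of all genes passed. The q-values of the authors' deposited table gave 6, where 7.84% passed. At an unadjusted p under 0.05 limma gave 11 members, against 27.9% of all genes. Replicates did not overlap in 11 members, 10 with the inhibitor group below and 1 above, where 28.1% of all genes did so (15.3% below and 12.8% above). That count was 17 without inhibitor replicate 1, where 46.7% of all genes did so, and 19 without inhibitor replicate 3, where 45.4% did. This comparison shares the inhibitor libraries with the previous one and the HG libraries with the resveratrol one, so its values are not separate evidence. The changes of ADM and VEGFA were -1.79 ± 0.16 and -1.63 ± 0.15 (SE), with limma adjusted p of 0.000155 and 0.000166. For VEGFA the 4 groups did not overlap and lay in the order Ctrl, HG, HG-Res and inhibitor, with means of 79.02, 46.9, 27.4 and 14.7 CPM. The change of HK2 was -0.54 ± 0.09 with a limma adjusted p of 0.00718.

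ENO2 (ENSG00000111674), the enolase isoform best known from neurons, was the only member that rose. It was at 66.5, 71.4 and 59.98 CPM in HG, 80.54, 83.5 and 78.8 in HG-Res and 127.1, 114.8 and 93.5 in the inhibitor group. The 3 groups did not overlap. Its limma change from HG to the inhibitor group was 0.74 ± 0.13 with an adjusted p of 0.00657, while the steps of 0.29 ± 0.13 from HG to HG-Res and 0.45 ± 0.13 from HG-Res to the inhibitor group had limma adjusted p of 0.450 and 0.0695. ENO1, the broadly expressed isoform, had means of 4859, 5355 and 4626 CPM in HG, HG-Res and the inhibitor group and passed in no comparison.

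BNIP3 (ENSG00000176171), a mitophagy receptor, was at 48.9, 48.2 and 46.2 CPM in HG, 38.4, 39.7 and 42.8 in HG-Res and 34.4, 30.98 and 31.8 in the inhibitor group. No groups overlapped, and the 2 libraries that stood apart lay close to their groups (0.02 and -0.04 from the other replicates on log2). The limma change from HG to the inhibitor group was -0.55 ± 0.10 with an adjusted p of 0.00739. The separate steps of -0.24 ± 0.10 and -0.31 ± 0.10 had limma adjusted p of 0.397 and 0.0957.

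SLC2A1 (ENSG00000117394), the glucose transporter GLUT1, was at 86.5, 93.1 and 83.7 CPM in HG and 67.1, 64.1 and 46.2 in the inhibitor group, a limma change of -0.58 ± 0.14 with an adjusted p of 0.0293. NDRG1, a stress-response gene induced by hypoxia, was at 21.7, 23.8 and 23.1 CPM in HG and 18.3, 16.95 and 14.3 in the inhibitor group, a change of -0.45 ± 0.11 with a limma adjusted p of 0.0308. For PFKFB3 the change was -0.44 ± 0.12 with a limma adjusted p of 0.0433. In all 3 genes the inhibitor libraries lay below the HG libraries and replicate 3 was the lowest. These 3 calls were lost when any 1 of 7 libraries was left out (each HG replicate, each HG-Res replicate or inhibitor replicate 2), which left 5 members called each time: ENO2 higher and ADM, VEGFA, HK2 and BNIP3 lower. Of all genes, 4.27%, 5.56% and 6.67% passed without HG replicates 1, 2 and 3, 6.62%, 6.57% and 6.49% without HG-Res replicates 1, 2 and 3, and 4.97% without inhibitor replicate 2. The limma adjusted p in those 7 fits ran from 0.0582 to 0.0958 for SLC2A1, 0.0616 to 0.0927 for NDRG1 and 0.0817 to 0.130 for PFKFB3.

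Without inhibitor replicate 3, 12 members passed limma, where 21.1% of all genes did. ALDOA and GPI joined ENO2 as higher, and EPAS1 and LDHB joined the members that were lower. With HG replicate 2 left out as well the count was 18, where 31% of all genes passed, 6 higher and 12 lower. With the inhibitor and HG groups fitted alone it was 2, ADM and VEGFA, where 3.27% passed.

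**Figure D3:**
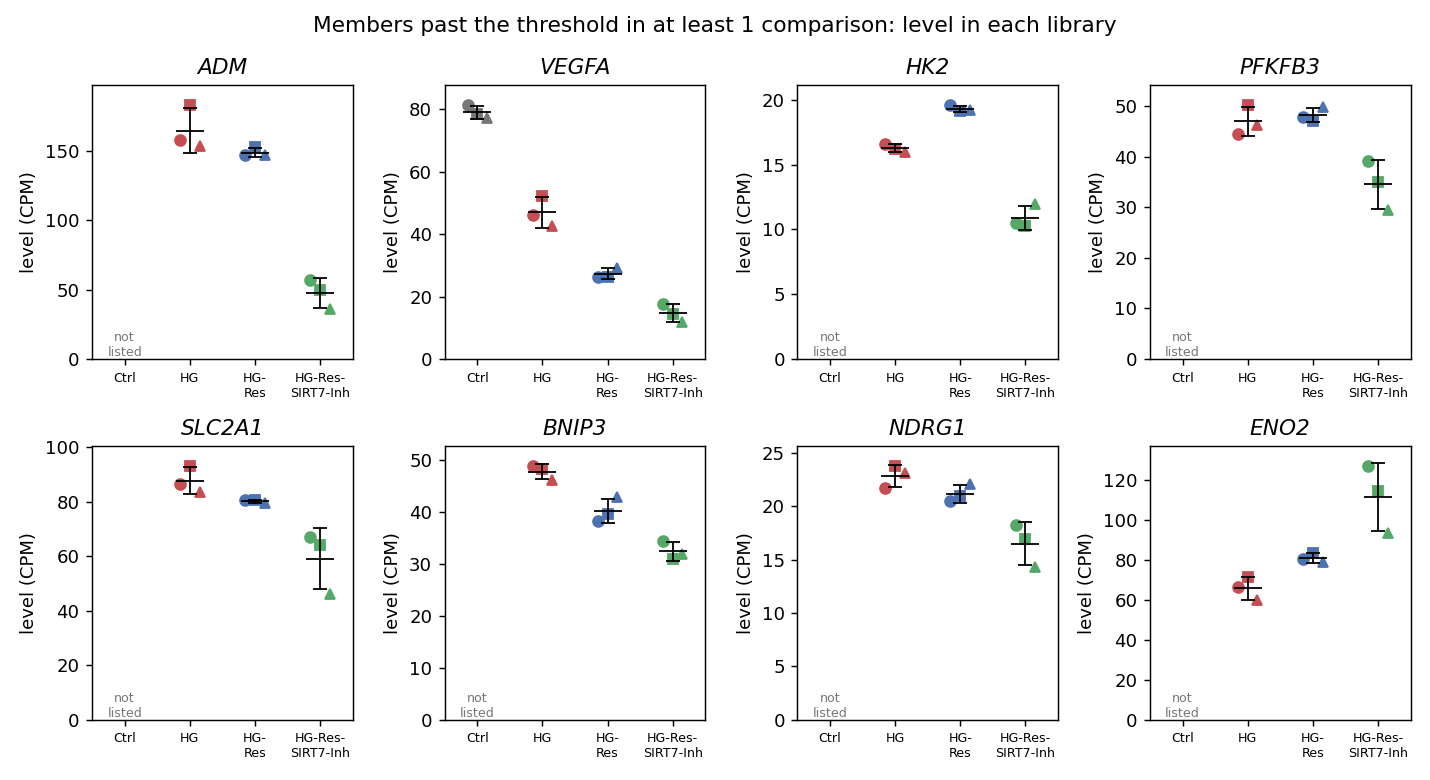
Level in CPM of the 8 members that passed in at least 1 comparison, in each library (circle, square and triangle for replicates 1, 2 and 3), with the group mean and SD as bars and linear axes from 0. Means of VEGFA run from 79.02 CPM in Ctrl to 14.7 in the inhibitor group, ADM is lowest in the inhibitor group, and the high-glucose groups of HK2, BNIP3 and ENO2 do not overlap; Ctrl is not listed for the other 7 genes.

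The oxygen-sensing genes themselves passed in no comparison. HIF1A, the main alpha subunit, was at 501.03, 358.4 and 565.6 CPM in HG, 516.3, 479.5 and 475.7 in HG-Res and 422.4, 505.5 and 586.6 in the inhibitor group. The groups overlapped, and the widest spread was within HG, where replicate 2 was lowest. The limma change from HG-Res to the inhibitor group was 0.03 ± 0.17 with an adjusted p of 0.918. EPAS1, which encodes HIF-2 alpha, was at 117.7, 125.7 and 123.3 CPM in HG, 121.5, 122.7 and 122.5 in HG-Res and 104.9, 96.4 and 96.7 in the inhibitor group. Its inhibitor libraries lay below all others, but the limma change of -0.30 ± 0.09 against HG-Res had an adjusted p of 0.0793. Against HG the EPAS1 change was also -0.30 ± 0.09, with a limma adjusted p of 0.0603. EPAS1 passed limma against HG without a filter on low values. It passed in both comparisons without inhibitor replicate 1, without inhibitor replicate 3, and with HG replicate 2 and inhibitor replicate 3 both left out. EGLN1, the main HIF prolyl hydroxylase, was at 34.4, 23.97 and 36.5 CPM in HG, 36.3, 31.2 and 32.1 in HG-Res and 32.2, 42.1 and 45.6 in the inhibitor group, which overlap. Its limma change from HG to the inhibitor group was 0.34 ± 0.18 with an adjusted p of 0.249.

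Several genes often used as hypoxia reporters did not pass either. CA9, a cell-surface carbonic anhydrase, was at 4.81, 6.78 and 4.66 CPM in HG, 5.06, 4.46 and 4.29 in HG-Res and 3.66, 3.72 and 2.01 in the inhibitor group. Its inhibitor libraries lay below the others, with a limma change from HG of -0.65 ± 0.19 and an adjusted p of 0.0575. It passed limma without inhibitor replicate 1 (adjusted p 0.0404) and with TMM scaling (adjusted p 0.0481), and had a limma adjusted p of 0.17 without HG replicate 2. PGK1, a pay-off enzyme and classical HIF target, was at 639.2, 632.5 and 605.96 CPM in HG, 589.6, 626.3 and 627.2 in HG-Res and 625, 608.4 and 640.7 in the inhibitor group. The groups overlapped. Its limma changes were -0.03 ± 0.08, 0.02 ± 0.08 and 0.00 ± 0.08 in the 3 comparisons. GAPDH, the first pay-off enzyme, was at 7367, 8078 and 6753 CPM in HG, 7994, 8129 and 8218 in HG-Res and 8788, 8323 and 6527 in the inhibitor group, which overlapped, with limma adjusted p of 0.756, 0.758 and 0.648. LDHA was at 1000.2, 1000.4 and 1227 CPM in the inhibitor group, which overlapped both other groups, with a limma adjusted p of 0.482 against HG-Res.

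The remaining members passed in none of the 3 comparisons, and 1 library often set their range. PDK1, the kinase that closes the entry of pyruvate into the mitochondrion, was at 4.70 to 6.35 CPM over the 9 libraries, and P4HA1, a collagen prolyl hydroxylase, at 77.3 to 162 CPM, where HG replicate 2 was the lowest library and inhibitor replicate 3 the highest. SLC16A3, the lactate exporter MCT4, was at 95.5 to 198.5 CPM, with the reverse order of these libraries. PFKFB4, a second source of the PFK activator, was at 9.21 CPM in inhibitor replicate 3 and at 12.8 to 16.03 in the other 8 libraries. LDHB, the subunit that favours pyruvate, was at 893.8, 876.5 and 831.97 CPM in HG and 700.9, 642.97 and 827.96 in the inhibitor group, which did not overlap, with a limma change of -0.27 ± 0.11 and an adjusted p of 0.136. BHLHE40, a transcriptional repressor, was at 22.9 to 23.2 CPM in HG-Res and 24.1 to 30.8 in the other groups. HILPDA, a lipid droplet protein, was at 23.1 to 29.9 CPM, KDM3A, a histone demethylase, at 6.8 to 10.9, MXI1, a MYC antagonist, at 7.63 to 13.8, and P4HA2, a collagen prolyl hydroxylase, at 43.5 to 57.6, all with overlap of the inhibitor group and HG. ANKRD37 was at 1.98 to 3.29 CPM, and about 63 to 109 reads per library lie behind that. Of the 12 other HIF targets, ADM, VEGFA, BNIP3 and NDRG1 fell from HG to the inhibitor group, and the other 8 passed in none of the 3 comparisons.

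**Figure D4:**
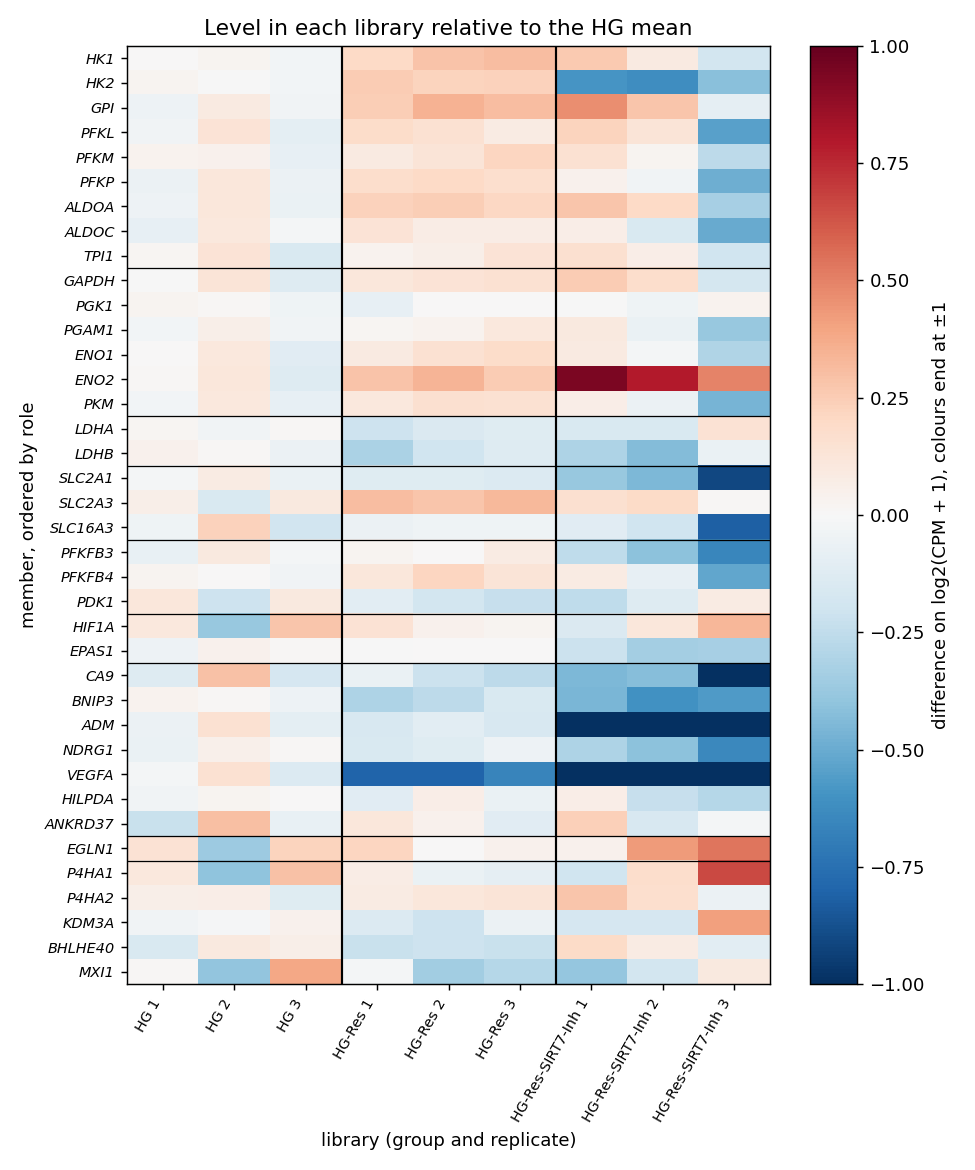
Level of each of the 38 tested members (rows, ordered by role) in each of the 9 high-glucose libraries (columns), as the difference from the HG mean on log2(CPM + 1); colours end at 1 and -1. ADM and VEGFA are the deepest blue in the 3 inhibitor libraries, and within groups the columns of HG replicate 2 and inhibitor replicate 3 stand out, with P4HA1 at 77.3 CPM in the former and 162 in the latter.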

How the data were processed

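RNA from 12 libraries labelled H9C2 was poly(A)-selected and sequenced on a NovaSeq as 150 bp read pairs, per the labels' protocols. Trimmomatic and build rn6 are named per the submitters' processing notes; an aligner, counter, annotation or test was not given in the sources used here. Beside library values, the 4 deposited tables give the authors' log2 fold change, p-value and q-value. Per the file headers the deposited values are TPM, but their low values step by the same amount for every gene of a library, so the deposited values were treated as CPM. Approximate reads derived from the step served depth, duplicate checks and the voom alternative.

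Values were used without further scaling as log2(CPM + 1), with a filter of 0.5 CPM in 3 of the 9 high-glucose libraries. They were fitted with limma 3.58.1 (R 4.3.3) in 1 model over HG, HG-Res and the inhibitor group, with a trend on intensity and Benjamini-Hochberg adjustment over 12854 genes. The planned count model was not used because the values are not counts. Fold changes understate those of low genes, and p-values measure the spread between libraries labelled biological replicates. The 4 tables share libraries with equal values. Ctrl enters through the 354 marked genes alone. The fit was tested on simulated libraries with a common spread and no library apart, so that test does not cover the unequal spread seen here. Library values are printed for members that passed in a comparison, stand in the HG against Ctrl table, are HIF subunits or prolyl hydroxylases, or are GAPDH, LDHA, PGK1, SLC2A1, VEGFA or CA9; the others named were chosen after their values were seen. The members and lists were chosen with earlier results of these data known. Alternatives covered pseudocount, filter, scaling, voom, 2 groups alone, a replicate block, a single prior variance, a stricter threshold, each library left out, and HG replicate 2 and inhibitor replicate 3 both left out, since earlier results showed them apart. Alternatives for the counts of members without overlap, and the count of members that changed direction, were chosen after seeing the data.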

Additional observations from a re-analysis of the deposited data

How the results depend on the processing

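No member changed direction in any alternative of a comparison in which it passed. Of the 38 tested members, up to 3 changed direction in HG-Res against HG, up to 9 in the inhibitor group against HG-Res and up to 11 in the inhibitor group against HG, numbers reached with HG replicate 2 and inhibitor replicate 3 both left out. For HG-Res against HG, where 0 members passed limma, 3 passed with the 2 groups fitted alone, 13 with HG replicate 2 and inhibitor replicate 3 both left out, and 6 by the authors' q-values; leaving out each library gave 0 to 3. For the inhibitor group against HG-Res, where 4 passed, the count was 11 with both libraries left out and 2 to 7 leaving out each. For the inhibitor group against HG, where 8 passed, it was 2 with the 2 groups alone, 18 with both left out, 5 at an adjusted p under 0.01 (3.78% of all genes) and 5 to 12 leaving out each. Members whose replicates did not overlap numbered 19, 18 and 11 in these comparisons, where 29.9%, 33.7% and 28.1% of all genes did not overlap. Leaving out each library gave 20 to 29, 18 to 25 and 11 to 19 members. The shares of all genes then ran from 32.9% to 58.7%, 36.9% to 60.1% and 30.7% to 46.7%. With both left out the counts were 29, 20 and 25, where 58.7%, 48.1% and 61.7% of all genes did not overlap. For HG against Ctrl, 1 member was marked and 0 at a fold of at least 2.

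Whether replicate numbers pair the libraries was not settled. The correlations of same-numbered libraries ran from -0.547 to 0.636 over 9 pairs, 4 of them over 0.1. They cannot decide it, because the libraries that stood apart from their groups can weigh on them. With a replicate block, 0, 3 and 7 members passed limma in the 3 comparisons, where 0.35%, 5.05% and 8.65% of all genes did. PFKFB3 was not called against HG-Res (limma adjusted p 0.0743), PFKFB3 and NDRG1 were not called against HG (0.0726 and 0.0596), and CA9 was (0.0383). At this depth the members with few reads, EGLN3 above all, could not show small changes, and 3 libraries a group limit every comparison.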
